A study of Mus musculus with 8 samples.

Results

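The comparison set 2 epidermal populations of mouse skin side by side without ablation: the libraries labelled Lrig1 control (2) against those labelled K14 control (2), which makes 4 of the 8 libraries of the series. The members were every expressed gene, 18140 of the 32574 in the table. RNA came from epithelial cells sorted by fluorescence out of skin epidermis, and the study used such cells to ask how epidermal clones expand and how the tissue becomes fluid. All 4 control libraries carry the genotype label WT, whereas the other 4 libraries, K14 ablation and Lrig1 ablation, are labelled as ablated in the basal lineage. The sources used here do not say whether K14 and Lrig1 name a Cre or reporter driver, a sorted population or a lineage. They give no age, sex, strain or treatment for the controls and no number of animals behind a library. The p-values below therefore measure only the spread between these libraries, which may be technical.

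Skin epidermis is renewed from a basal layer of keratinocytes that carry the keratins K14 and K5 and are anchored to the basement membrane through integrins and laminin. Cells leaving this layer switch to suprabasal keratins, then to filaggrin, loricrin and small proline-rich proteins of the cornified barrier. The hair follicle opens to the surface through the infundibulum, beneath which a junctional zone near the sebaceous gland holds stem cells marked by Lrig1, a transmembrane protein that restrains EGF receptor signalling.

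The values are normalised reads per gene, which depend on gene length, so levels of different genes are not compared. Recovered depth was 6458636 to 8575279 reads in the control libraries, where 3 reads correspond to 2.95 to 4.23 normalised reads. Mitochondrial genes took 2.91 and 2.90% of normalised reads in K14 control and 6.29 and 6.89% in Lrig1 control. The recovered reads of a pair varied more than counting error alone gives: per gene, chi-square averaged 1.39 for the K14 control pair and 2.07 for the Lrig1 control pair, against 18.9 and 27.2 for the ablation pairs. Xist and all 4 listed Y-linked genes were read in every control library. Xist had 22492 and 23645 normalised reads in K14 control and 8679 and 12000.3 in Lrig1 control, and Ddx3y 519 and 389.9 against 851 and 703. The sex mix and the group cannot be told apart here, and the part of either in the results was not tested.

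Expression differed between the 2 populations in 1594 of 18140 genes, or 8.79% (limma on log2(normalised reads + 1), 1 fit over all 8 libraries, Benjamini-Hochberg adjusted p under 0.05). Of these, 1183 genes (6.52%) were higher in Lrig1 control and 411 (2.27%) were lower, and in all 1594 the libraries of the groups did not overlap. Non-overlap alone was common: both Lrig1 libraries lay above both K14 libraries in 34.5% of tested genes and below them in 34.4%. The higher genes had a median log2 difference of 1.91, and 565 of them exceeded 2, whereas the lower genes had a median of -1.14 and 49 exceeded that size. The median over all tested genes was -0.0049. Protein-coding genes made up 90.9% of the higher genes, 79.3% of the lower ones and 74.5% of all tested genes with an annotated type.

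The spread in that fit comes from all 4 groups, and the ablation pairs vary far more than the control pairs. Sex-linked reads differed within both ablation pairs. Ddx3y had 0.708 and 759 normalised reads in K14 ablation 1 and 2, and 0 and 1285 in Lrig1 ablation 1 and 2. Xist had 25230 and 6948, and 23378 and 66.1, in the same order. The part of sex in that spread was not tested. Fitted to the 4 control libraries alone, limma called 7269 genes (40.1%), 3815 higher (21.0%) and 3454 lower (19.0%), among them all 1594. EdgeR on the recovered reads of all 8 libraries called 1396 genes (7.70%), 1048 higher (5.78%) and 348 lower (1.92%), of which 1041 and 345 were also limma calls. The median absolute log2 difference between the libraries of a pair was 0.14 in K14 control and 0.17 in Lrig1 control, and between the group means it was 0.35. Without K14 control 1 or K14 control 2 the 8-library count fell to 91 or 96, and without Lrig1 control 1 or Lrig1 control 2 it was 0 (limma; 2818 and 2677 genes had an unadjusted p below that cutoff). In fits of 3 control libraries alone the count was 5278 to 6713, and 1571 of the 1594 genes passed in all 4 such fits and with all 4 control libraries. A gene is written below as higher or lower only where it passed in the 8-library fit, and calls in the controls alone are named as such.

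**Figure D1:**
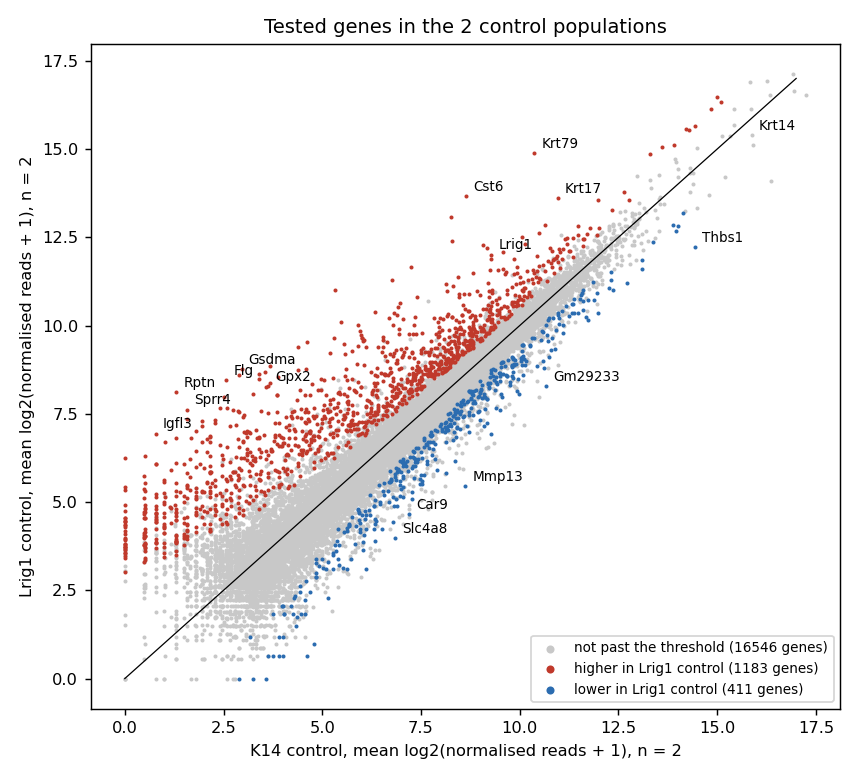
Mean log2(normalised reads + 1) of each of the 18140 tested genes in K14 control (horizontal axis) and Lrig1 control (vertical axis), 2 libraries each, with the diagonal of equal values. The 1183 higher genes (red) reach farther from the diagonal than the 411 lower genes (blue), with Rptn, Igfl3 and Sprr4 at the upper left and Mmp13, Car9 and Slc4a8 below.

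Upper hair follicle genes lay mostly above the diagonal. Of 17 tested members of that list 14 were higher in Lrig1 control and none lower, with a median log2 difference of 2.73 against a background of 6.52% called higher. Lrig1 itself (ENSMUSG00000030029, GRCm38 chromosome 6) stood at 585 and 656 normalised reads in K14 control and at 4013 and 4194 in Lrig1 control. Its libraries did not overlap, in the order the labels name, and it differed by 2.73 ± 0.59 on the log2 scale (SE; limma adjusted p = 0.0286).

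Krt79 (ENSMUSG00000061397, chromosome 15), a keratin of the infundibulum and the sebaceous duct, had 1395 and 1246 normalised reads in K14 control and 28938 and 31438 in Lrig1 control. It differed by 4.51 ± 0.85 (limma adjusted p = 0.0178). Cst6, the gene of cystatin E/M, a protease inhibitor that protects the barrier, went from 412 and 389 to 12740.3 and 13373, a log2 difference of 5.02 ± 0.83 (limma adjusted p = 0.0118). The libraries of a pair lay close together in both genes, far from those of the other population. Defb6, a beta-defensin gene, had 339 and 279 normalised reads in K14 control and 8548 and 8792 in Lrig1 control, a log2 difference of 4.81 ± 0.91 (limma adjusted p = 0.018).

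Gata6, a transcription factor gene of the sebaceous duct and upper follicle, had 25.4 and 21.7 normalised reads in K14 control and 773 and 699 in Lrig1 control, and differed by 4.91 ± 0.74 (limma adjusted p = 0.00855). Nebl, which encodes an actin-binding protein, differed by 4.53 ± 0.54. Krt17, a keratin of the follicle and of stressed keratinocytes, had 1901 and 2082 normalised reads against 12654 and 12357, a log2 difference of 2.65 ± 0.17 with limma adjusted p = 0.00119. Sostdc1 and Fst, secreted antagonists of BMP and activin signals, were 1.49 ± 0.14 and 2.04 ± 0.21 higher on the log2 scale.

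Not all genes of that list moved. Plet1, a surface marker of the upper follicle, had 2812 and 2752 normalised reads in K14 control and 3002 and 2909.5 in Lrig1 control (limma adjusted p = 0.928). Lgr6, a receptor gene of stem cells in the isthmus, had 582 and 665 in K14 control and 346 and 364 in Lrig1 control, a log2 difference of -0.81 ± 0.27 (limma adjusted p = 0.11). Its groups did not overlap, and it lay lower in Lrig1 control in the controls alone (limma adjusted p = 3.48e-06). The water channel gene Aqp3 was at 0.08 ± 0.22.

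The promoters of Krt79 and Defb6 are shown because these genes carried large differences and their start sites match in both annotations. Each run is the 250 bases before the start site, from RefSeq on GRCm38.p6, read 5′ to 3′ on the gene's strand. Capitals mark matches on either strand to any of 3 motifs. The letters TGANTCA, with any base at N, cover TGACTCA and TGAGTCA, the usual sites of AP-1 factors. They also cover looser forms with A or T at N. All of these forms count below as the AP-1 motif. The letters AGATAA are bound by Gata factors. The letters TATAAA belong to core promoters with a TATA box. The Krt79 run lies at chr15:101940325-101940574 (minus strand) and the Defb6 run at chr8:19225228-19225477 (plus strand).
Krt79: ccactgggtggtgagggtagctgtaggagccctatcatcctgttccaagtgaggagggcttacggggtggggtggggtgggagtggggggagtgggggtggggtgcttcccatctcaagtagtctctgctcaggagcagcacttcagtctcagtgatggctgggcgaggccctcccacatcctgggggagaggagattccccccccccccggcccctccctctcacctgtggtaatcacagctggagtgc
Defb6: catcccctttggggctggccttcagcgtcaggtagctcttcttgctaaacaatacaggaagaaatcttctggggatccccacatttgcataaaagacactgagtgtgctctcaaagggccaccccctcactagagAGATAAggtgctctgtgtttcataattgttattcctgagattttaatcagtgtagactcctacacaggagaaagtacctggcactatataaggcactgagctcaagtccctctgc
The Krt79 run held none of the 3 motifs, and the Defb6 run held 1 GATA match, 115 bases before the start. Of 6 upper follicle genes called higher with a promoter in the table, 0 held the AP-1 motif, 1 the GATA motif and 0 the TATA motif. Over the 10943 tested genes with such a promoter, 4.77% held the AP-1 motif, 5.95% the GATA motif and 7.08% the TATA motif.

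**Figure D2:**
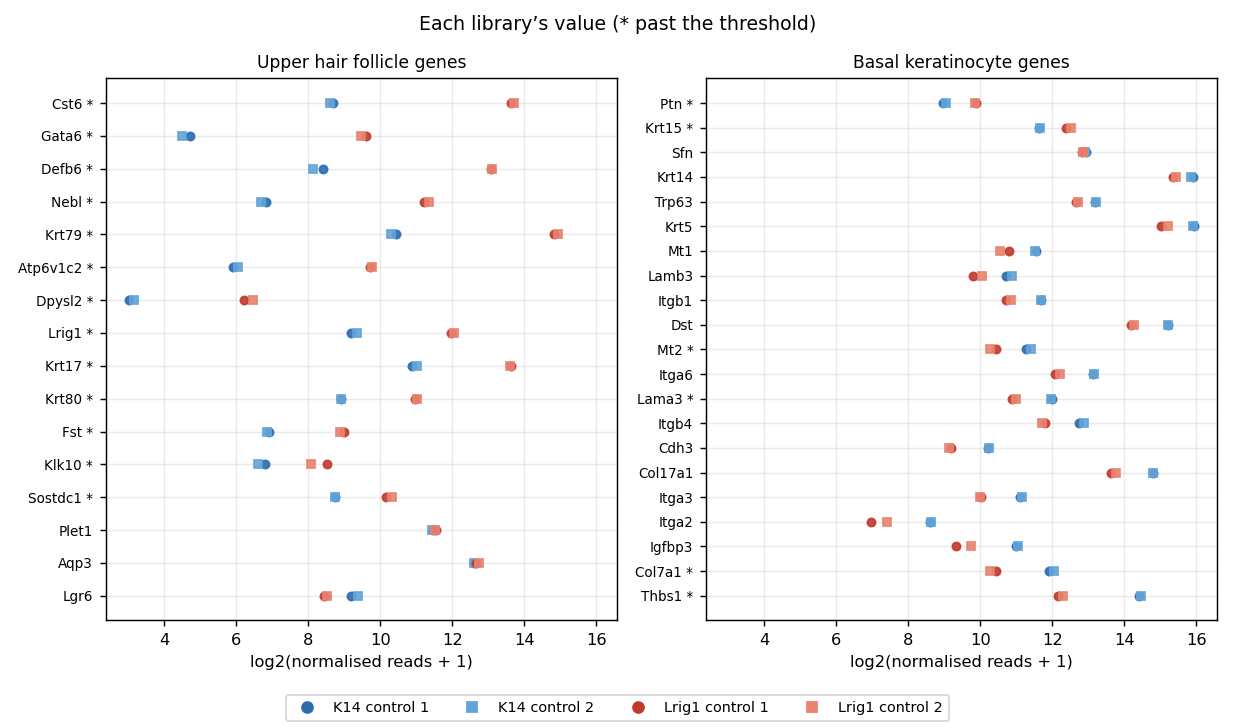
Log2(normalised reads + 1) in each of the 4 control libraries (points) for tested genes of the upper hair follicle list (left) and the basal keratinocyte list (right), 1 gene of each not shown, sorted by their log2 difference, with an asterisk for genes past the threshold. In the left panel most Lrig1 control points (red) lie far to the right of the K14 control points (blue), and in the right panel most lie slightly to the left, with Krt15 and Ptn called higher.

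The basal keratins were abundant in both populations. Krt14 had 61325 and 59192 normalised reads in K14 control and 41781 and 44253 in Lrig1 control, differing by -0.49 ± 0.41 (limma adjusted p = 0.531). Krt5 had 62722 and 60786 against 33207 and 37784, at -0.80 ± 0.43 (limma adjusted p = 0.306). Both were lower in Lrig1 control without overlap, yet neither passed in the 8-library fit, while both were called lower in the controls alone (limma adjusted p = 6.04e-05 for Krt14 and 7.06e-07 for Krt5).

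Among the 22 tested genes of the basal keratinocyte list 5 were lower (background 2.27%) and 2 higher (6.52%) in Lrig1 control. The median log2 difference was -0.99. In the controls alone 19 were lower (background 19.0%) and 2 higher (21.0%). Thbs1, which encodes the matrix protein thrombospondin-1, had 21818 and 22435 normalised reads in K14 control and 4548 and 5037 in Lrig1 control. It differed by -2.21 ± 0.24 (limma adjusted p = 0.004). Col7a1, the gene of the collagen of anchoring fibrils, had 3813 and 4235 against 1376 and 1238, a log2 difference of -1.62 ± 0.21 (limma adjusted p = 0.00525). The drop was similar in both Lrig1 libraries for each of these genes. Lama3, which encodes a laminin chain, was lower by -1.04 ± 0.20.

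Against that direction, Krt15, a keratin of basal cells and of the follicle bulge, had 3151 and 3205 normalised reads in K14 control and 5327 and 5895 in Lrig1 control, a log2 difference of 0.82 ± 0.15 (limma adjusted p = 0.0163). Ptn, which encodes the growth factor pleiotrophin, was 0.85 ± 0.16 higher. Trp63, the gene of the master regulator of the stratified epithelial state, was at -0.50 ± 0.17 and did not pass (limma adjusted p = 0.12).

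The basement membrane and matrix list shared several of these genes. Of its 34 tested members 8 were lower (background 2.27%) and 5 higher (6.52%), with a median log2 difference of -0.71. Calls in the controls alone were 24 lower (background 19.0%) and 6 higher (21.0%). Tnc, the gene of tenascin-C, had 971 and 1034 normalised reads in K14 control and 220.0 and 321 in Lrig1 control, and differed by -1.91 ± 0.33 (limma adjusted p = 0.0137). Outside that list Has2, which encodes a hyaluronan synthase, had 305 and 253 against 64.0 and 47.9, a log2 difference of -2.30 ± 0.31 (limma adjusted p = 0.00623). The higher members of the list were Fn1, Nid2, Egfl6, Postn and Lamb2, by 0.74 to 3.74. Fn1, the gene of fibronectin, had 15.2 and 27.6 normalised reads in K14 control and 257 and 320.0 in Lrig1 control.

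Of 24 integrin and focal adhesion genes 1 was lower (background 2.27%) and 3 higher (6.52%), and the median was -0.14. In the controls alone 11 were lower (background 19.0%) and 6 higher (21.0%). Itgb6, whose protein pairs with the alpha-v chain on epithelial cells, was lower by -1.11 ± 0.23 (limma adjusted p = 0.0237). Itga6 and Itgb4, the genes of the hemidesmosome integrin, had log2 differences of -1.0 ± 0.32 and -1.06 ± 0.29, with limma adjusted p = 0.0988 and 0.0645, and were called lower in the controls alone. The higher ones, Itga9, Itgb2 and Itga8, had at most 31.0 normalised reads in any control library.

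Suprabasal and granular genes were higher in Lrig1 control as a group. Of 32 tested members 20 were higher (background 6.52%) and none lower, and the median log2 difference was 1.78. In the controls alone 30 were higher (background 21.0%) and 1 lower (19.0%). Rptn, which encodes the barrier protein repetin, had 2.03 and 0.985 normalised reads in K14 control and 263 and 286 in Lrig1 control. With 3 recovered reads in K14 control and 429 in Lrig1 control, the ratio of levels was 182, with an exact 95% counting interval of 62.0 to 888. The log2 difference of 6.81 ± 0.97 was the largest among the named genes (limma adjusted p = 0.00714).

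Flg, the gene of profilaggrin, had 4.06 and 5.91 normalised reads in K14 control and 339.9 and 358 in Lrig1 control, a log2 difference of 5.89 ± 0.92 (limma adjusted p = 0.00993). Klk7, a kallikrein protease gene of the shedding cell layers, had 43.7 and 34.5 against 2019 and 2072, at 5.68 ± 0.86 (limma adjusted p = 0.00886). Spink5, which encodes the inhibitor of such kallikreins, had 337 and 286 against 5315 and 5565, at 4.13 ± 0.45 (limma adjusted p = 0.004). The protease and its inhibitor were thus both higher in both Lrig1 libraries. Cdsn, the gene of corneodesmosin in the junctions of the outer layers, differed by 5.0 ± 0.47, and Hrnr, the gene of the filaggrin relative hornerin, by 4.36 ± 0.53.

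The suprabasal keratins Krt10, Krt1 and Krt2 were much closer to equal than the genes above. Krt10 had 46312 and 42573 normalised reads in K14 control and 66749 and 78428 in Lrig1 control, a log2 difference of 0.70 ± 0.25 (limma adjusted p = 0.129). Krt1 was at 0.80 ± 0.28 (limma adjusted p = 0.127) and Krt2 at 0.23 ± 0.43. Krt10 and Krt1 did not overlap between groups and passed in the controls alone (limma adjusted p = 8.51e-06 and 1.52e-07). Krt77, a suprabasal keratin that is prominent in eccrine ducts, was higher by 4.34 ± 0.72, with 45.7 and 32.5 against 697 and 919 normalised reads.

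Of the small proline-rich and late envelope genes 12 of 31 in the table passed the filter on low values. Of these 12, 5 were higher (background 6.52%) and none lower. Sprr1a had 456 and 440.1 normalised reads in K14 control and 3105 and 2702 in Lrig1 control (log2 difference 2.69 ± 0.53; limma adjusted p = 0.0215). Sprr4 had 2.03 and 1.97 against 221 and 173, at 6.04 ± 0.97 (limma adjusted p = 0.0108). Sprr2b, Sprr2d and Sprr2e were also higher, but the Sprr2 genes are near-identical copies and the sources used here do not say how reads shared between them were counted, so their separate values are uncertain.

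These genes lie together on the chromosome. The epidermal differentiation complex, taken as the span of its family members on GRCm38 chromosome 3 (92080271 to 93471980), held 34 tested genes, of which 16 (47.1%) were higher and none lower, with a median of 1.8. In the kallikrein cluster on chromosome 7 (43712567 to 43851181) 4 of 8 tested genes were higher, namely Klk6, Klk7, Klk8 and Klk10. The type I keratin cluster on chromosome 11 held 12 higher of 29 tested genes and the type II cluster on chromosome 15 held 10 of 32 (background 6.52%), with medians of 1.40 and 0.51. Neither held a lower gene in the 8-library fit. In the controls alone 2 and 6 of their genes were lower (background 19.0%), and 19 and 17 were higher (21.0%). These spans were chosen after the values were seen.

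Promoters of 3 genes of the complex are shown because they share motif letters. The Rptn run lies at chr3:93393449-93393698 (plus strand), the Flg run at chr3:93273296-93273545 (plus strand) and the Sprr1a run at chr3:92485882-92486131 (minus strand), each again the 250 bases before the start site from RefSeq on GRCm38.p6, with the same motifs in capitals.
Rptn: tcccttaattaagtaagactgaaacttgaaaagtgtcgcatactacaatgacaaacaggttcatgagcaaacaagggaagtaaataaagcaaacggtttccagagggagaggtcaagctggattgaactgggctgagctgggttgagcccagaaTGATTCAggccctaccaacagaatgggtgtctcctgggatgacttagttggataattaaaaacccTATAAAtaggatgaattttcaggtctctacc
Flg: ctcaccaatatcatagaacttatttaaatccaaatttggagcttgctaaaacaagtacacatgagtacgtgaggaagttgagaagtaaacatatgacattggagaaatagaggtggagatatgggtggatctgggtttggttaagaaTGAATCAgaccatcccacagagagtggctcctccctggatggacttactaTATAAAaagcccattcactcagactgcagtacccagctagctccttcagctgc
Sprr1a: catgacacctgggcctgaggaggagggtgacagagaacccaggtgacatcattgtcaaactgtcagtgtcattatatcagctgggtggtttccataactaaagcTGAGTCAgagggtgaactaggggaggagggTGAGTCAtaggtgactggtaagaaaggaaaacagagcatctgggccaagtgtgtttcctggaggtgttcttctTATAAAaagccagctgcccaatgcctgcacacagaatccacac
The AP-1 match began 96 bases before the start in Rptn, 103 in Flg, and 146 and 116 in Sprr1a. Its middle base as printed was T in Rptn and A in Flg, the looser forms, and G in both Sprr1a matches. The TATA match began 31, 53 and 43 bases before the start. These distances count from the RefSeq start. It lies 0, 23 and 14 bases from the start in the other annotation, GENCODE, for Rptn, Flg and Sprr1a, so the spacing depends on the annotation. Of 13 genes of the complex called higher with a promoter in the table, 10 held the AP-1 motif and 11 the TATA motif. Of the 10 that were not called, 5 held each, so both shares exceed the 4.77% and 7.08% of all tested promoters. The complex holds copied genes that share sequence, and a match is only a description of letters.

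Keratins of hair and scales had a median log2 difference of 3.66. Of 17 tested members 12 were higher (background 6.52%) and none lower, and all 17 were called higher in the controls alone (background 21.0%). Krt84, a keratin of hard structures, was abundant in both populations, with 12354 and 12681 normalised reads in K14 control and 31890.3 and 36926 in Lrig1 control (log2 difference 1.45 ± 0.23; limma adjusted p = 0.0108). Krt36 had 8122 and 8038 against 18064 and 20536 and did not pass (limma adjusted p = 0.0726).

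The other hair keratins were low and uneven between the Lrig1 libraries. Krt83 had 0 and 7.88 normalised reads in K14 control and 72.2 and 358 in Lrig1 control, Krt87 10.2 and 1.97 against 126 and 492, and Krt31 4.06 and 11.8 against 86.1 and 355. These 3 keratins of the hair shaft were several times higher in Lrig1 control 2 than in Lrig1 control 1, and both lay above the K14 libraries. Krt35, another shaft keratin, had 8.12 and 6.89 in K14 control and 241 and 69.1 in Lrig1 control, so the order of the Lrig1 libraries was the reverse. Krt25, a keratin of the inner root sheath, had 7.11 and 5.91 against 118 and 74.7, at 3.66 ± 0.48 (limma adjusted p = 0.00592).

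**Figure D3:**
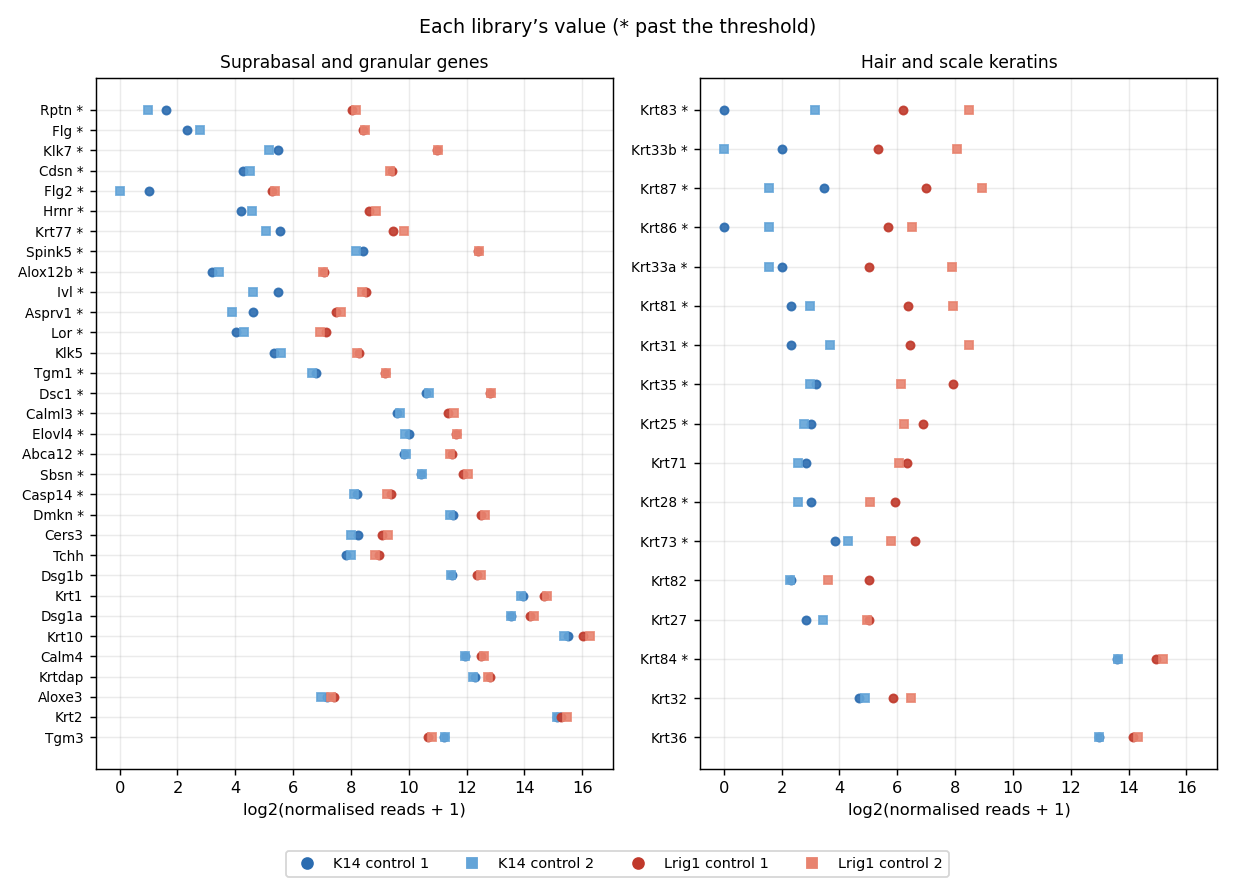
Log2(normalised reads + 1) in each control library for the tested suprabasal and granular genes (left) and hair and scale keratins (right), sorted by log2 difference, with an asterisk for genes past the threshold. The pair of Lrig1 control points (red) is tight for Rptn, Flg and Klk7 and spread for Krt83, Krt33b and Krt31, while Krt10, Krt1 and Krt2 differ less between groups than these.

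Bulge and germ genes were higher in part. Of 21 tested members 8 were higher (background 6.52%) and 1 lower (2.27%), with a median of 0.97. Foxc1, a transcription factor gene of quiescent follicle stem cells, had 274 and 287 normalised reads in K14 control and 2347 and 2262 in Lrig1 control, a log2 difference of 3.03 ± 0.67 (limma adjusted p = 0.0316). Sox9, which specifies follicle stem cells, had 666 and 726 against 3239 and 2907, at 2.14 ± 0.43 (limma adjusted p = 0.0219). Nfatc1 and Lhx2, transcription factor genes of the bulge, differed by 2.00 ± 0.34 and 1.83 ± 0.31. The surface markers that define the bulge stayed low: Cd34 had 12.2 and 8.86 normalised reads in K14 control and 26.8 and 16.9 in Lrig1 control, and Lgr5 30.5 and 48.2 against 67.5 and 52.2, and neither passed.

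Of 19 tested sebaceous gland genes 2 were higher, near the background of 6.52%, and none lower, with a median of 0.03. Prdm1, the gene of the repressor Blimp1, had 14.2 and 12.8 normalised reads in K14 control and 183 and 187 in Lrig1 control (log2 difference 3.68 ± 0.62; limma adjusted p = 0.0127). Fabp4, a fatty acid carrier gene that endothelial cells also express, had 5.08 and 0.985 against 33.8 and 36.7. The lipid enzyme gene Scd1 had 9686 and 9813 in K14 control and 5281 and 5412 in Lrig1 control (limma adjusted p = 0.461), and Pparg, the regulator of sebocytes, 206 and 193 against 62.9 and 60.6 (limma adjusted p = 0.351). Both passed in the opposite direction to Prdm1 in the controls alone, where 7 members were higher (background 21.0%) and 7 lower (19.0%).

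Across all epidermal and follicle transcription factors 18 of 60 tested genes were higher (background 6.52%) and 2 lower (2.27%), with a median of 0.18. Calls in the controls alone were 29 higher (background 21.0%) and 13 lower (19.0%). Elf5, an ETS factor gene, went from 7.11 and 6.89 normalised reads to 105 and 103, a log2 difference of 3.71 ± 0.90 (limma adjusted p = 0.0416). The differentiation regulators Grhl3 and Ehf were higher by 1.25 ± 0.26 and 1.27 ± 0.26, whereas Klf4, another, was level at 0.02 ± 0.20. The lower factors were Bnc1, the basonuclin of basal cells, by -1.21 ± 0.29, and Elf3, an ETS factor gene, by -1.0 ± 0.24. Of 33 tested Hox genes and other genes of body position 1, Hoxc9, was higher (background 6.52%, 0 by edgeR), none was lower, and the median was 0.02.

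In the EGF receptor pathway both higher and lower genes were found. Of 25 tested members 6 were higher (background 6.52%), Lrig1 among them, and 2 lower (background 2.27%), with a median of -0.39. In the controls alone the balance turned, with 9 higher (background 21.0%) and 14 lower (background 19.0%). Btc, the gene of the ligand betacellulin, had 5.08 and 1.97 normalised reads in K14 control and 93.1 and 127 in Lrig1 control, a log2 difference of 4.69 ± 1.03 (limma adjusted p = 0.0309). The ligand genes Ereg and Tgfa were higher by 2.29 ± 0.49 and 1.97 ± 0.21, and the receptor genes Erbb3 and Erbb2 by 0.95 ± 0.18 and 0.88 ± 0.15. Errfi1, a feedback inhibitor of the receptor, had 3503 and 3341 against 1801 and 1593, at -1.01 ± 0.16 (limma adjusted p = 0.00938), and Spred2, an inhibitor of Ras signalling downstream, was lower by -1.22 ± 0.25. The receptor gene Egfr was at -0.23 ± 0.15 and the ligand genes Epgn and Hbegf at -1.22 ± 0.36 and -0.76 ± 0.20, and none of these 3 passed.

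In the Notch pathway 5 of 16 tested genes were higher (background 6.52%) and none lower, with a median of -0.01. The controls alone gave 5 higher (background 21.0%) and 5 lower (19.0%). The receptor genes Notch2 and Notch3 had 1388 and 1496, and 670.3 and 684, normalised reads in K14 control, and 3276 and 3328, and 1718 and 1693, in Lrig1 control. Their log2 differences were 1.20 ± 0.17 and 1.33 ± 0.18, while Notch1 was at 0.14 ± 0.18. Nrarp, a feedback target of Notch, was higher by 1.30 ± 0.20 (limma adjusted p = 0.00886), whereas the target Hes1 was at -0.30 ± 0.16. The ligand Dll4, which endothelial cells also express, had 2.03 and 2.95 against 18.6 and 18.3.

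Of 40 Wnt pathway genes 5 were higher (background 6.52%) and none lower, with a median of 0.06. The controls alone gave 16 higher (background 21.0%) and 10 lower (19.0%). The 5 called over 8 libraries were the inhibitors Nkd2, Sostdc1 and Kremen1, the gene Dkkl1 and the receptor Fzd1. Nkd2 had 11.2 and 8.86 normalised reads in K14 control and 86.1 and 81.8 in Lrig1 control (log2 difference 2.95 ± 0.43; limma adjusted p = 0.00767). Axin2, a general target of the pathway, was at -0.15 ± 0.13. Of 13 Hedgehog genes 1 (background 2.27%), the co-receptor Cdon, was lower, by -0.86 ± 0.16 (limma adjusted p = 0.0161), and the targets Gli1 and Ptch1 did not pass.

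In the BMP and TGF-beta pathway 6 of 35 tested genes were higher (background 6.52%) and 1 lower (2.27%), with a median of -0.26. In the controls alone the balance turned, with 12 higher (background 21.0%) and 15 lower (19.0%). The ligand gene Bmp6 had 9.14 and 5.91 normalised reads in K14 control and 136 and 113 in Lrig1 control, at 3.90 ± 0.74 (limma adjusted p = 0.0186). Bmp7 had 391 and 394 against 1417 and 1445, at 1.86 ± 0.22 (limma adjusted p = 0.00442). Ltbp1, which holds latent TGF-beta in the matrix, and Inhbb, an activin subunit, were higher by 2.18 ± 0.19 and 2.12 ± 0.24, so ligands and antagonists such as Fst were both among the higher genes. Tgfbr3, the co-receptor betaglycan, was lower by -1.59 ± 0.36 (limma adjusted p = 0.0338), and the BMP target genes Id1 and Id3 were at -0.45 ± 0.18 and -1.0 ± 0.30 without passing.

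Junction genes were higher in 12 of 36 tested cases (background 6.52%) and lower in none, with a median of 0.56. The controls alone gave 25 higher (background 21.0%) and 6 lower (19.0%). Cldn1, the main claudin of the epidermal tight junction, had 1414 and 1484 normalised reads in K14 control and 6297 and 6301 in Lrig1 control, a log2 difference of 2.12 ± 0.28 (limma adjusted p = 0.00594). Dsc1, a desmosomal cadherin of the upper layers, and Nectin4, an adhesion molecule, were higher by 2.19 ± 0.34 and 1.78 ± 0.22. Cdh3, the basal P-cadherin gene, was at -1.06 ± 0.30 (limma adjusted p = 0.0668).

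Genes of host defence were higher in 7 of 15 tested cases (background 6.52%). The controls alone gave 10 higher (background 21.0%) and 2 lower (19.0%). The median was 2.81, which is the same with the genes at 0 in a group set at their bound. Wfdc17, a small secreted protein gene of the whey acidic protein family, had 143 and 183 normalised reads in K14 control and 1193 and 1231 in Lrig1 control (log2 difference 2.90 ± 0.33; limma adjusted p = 0.004). Defb1, a second beta-defensin gene, had 69.1 and 63 against 476 and 461, at 2.81 ± 0.34. Wfdc5 was at 0 in both K14 libraries and at 22.1 and 29.6 in Lrig1 control, which is at least 8.62-fold higher when each K14 library is set to 3 reads. Gpx2, a glutathione peroxidase gene, had the smallest p of all named genes, with 13.2 and 9.85 against 331 and 292 (4.65 ± 0.24; limma adjusted p = 0.000717).

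Of 28 tested cytokine and chemokine genes 4 were higher (background 6.52%), namely Il1f8, Il1b, Ccl27a and Il1rn. Another 2 were lower (background 2.27%), and the median was -0.32. Calls in the controls alone were 8 higher (background 21.0%) and 13 lower (19.0%). Il33, an alarmin gene of basal keratinocytes, had 1504 and 1557 normalised reads in K14 control and 503 and 526 in Lrig1 control (log2 difference -1.57 ± 0.38; limma adjusted p = 0.0428). Cxcl1, a neutrophil chemokine gene, had 739 and 698 against 189 and 197, at -1.89 ± 0.42 (limma adjusted p = 0.0316). Il1b, an inflammatory cytokine gene that myeloid cells also express, had 11.2 and 6.89 against 44.2 and 42.3.

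Of the wound and stress keratinocyte genes 4 of 17 were lower (background 2.27%) and 2 higher (6.52%), with a median of -0.72. Mmp13, a collagenase gene, had 394 and 387 normalised reads in K14 control and 46.6 and 39.5 in Lrig1 control. Its log2 difference was -3.16 ± 0.77 (limma adjusted p = 0.0421), the most negative among genes of at least 100 normalised reads. Mmp9, a gelatinase gene, had 24.4 and 22.6 against 0 and 1.41, a ratio of 36.9 with an exact 95% counting interval of 6.30 to 1486 from 47 and 1 recovered reads. Vim, the gene of vimentin, a filament protein of mesenchymal cells, endothelium and Langerhans cells, went the other way, from 38.6 and 54.2 to 611 and 816 (3.92 ± 0.25; limma adjusted p = 0.00119).

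Immediate early and AP-1 genes were lower in 11 of 29 tested cases (background 2.27%) and higher in none, with a median of -0.66. The controls alone gave 18 lower (background 19.0%) and 4 higher (21.0%). Fos had 17521 and 18685 normalised reads in K14 control and 9469 and 9346 in Lrig1 control, a log2 difference of -0.94 ± 0.18 (limma adjusted p = 0.0176). Jun had 14635 and 15551 against 7633 and 7041, at -1.04 ± 0.20 (limma adjusted p = 0.0193). Atf3, a stress-induced partner of Jun, had 8933 and 8534 against 3026 and 3208, at -1.49 ± 0.15 (limma adjusted p = 0.00318). All 4 values of each gene were high, and the Lrig1 libraries lay below both K14 libraries. Fosl1, an AP-1 subunit gene of migrating keratinocytes, and Cyr61, a matrix signalling gene, were lower by -1.49 ± 0.26 and -1.51 ± 0.16. Such genes are known to be induced by wounding, growth factors and tissue dissociation alike. Egr2 was at 1.58 ± 0.59 and Hspa1b at -0.21 ± 0.20, and neither passed.

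The promoters of Mmp13, at chr9:7272264-7272513 (plus strand), and of Fas, a death receptor gene, at chr19:34290409-34290658 (plus strand), are shown beside the AP-1 values because both genes were lower and hold the AP-1 letters. The window and capitals are as for Krt79.
Mmp13: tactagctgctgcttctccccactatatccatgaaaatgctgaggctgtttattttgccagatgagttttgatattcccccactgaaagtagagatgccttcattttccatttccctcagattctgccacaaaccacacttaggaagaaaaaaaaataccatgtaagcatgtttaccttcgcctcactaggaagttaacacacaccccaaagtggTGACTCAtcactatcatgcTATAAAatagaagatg
Fas: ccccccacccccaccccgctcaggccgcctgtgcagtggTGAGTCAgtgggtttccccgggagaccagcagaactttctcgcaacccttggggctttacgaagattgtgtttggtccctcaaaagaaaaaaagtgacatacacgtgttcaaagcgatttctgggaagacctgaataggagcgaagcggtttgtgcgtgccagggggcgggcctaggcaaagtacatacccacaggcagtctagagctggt
The AP-1 match began 35 bases before the start in Mmp13 and 211 bases before it in Fas, whose RefSeq start lies 7 bases from the GENCODE one. Over all called genes with a promoter in the table, 8.24% of 777 higher genes and 8.16% of 282 lower genes held the AP-1 motif, against 4.77% of all tested ones, so the motif's share was alike in both directions. The TATA motif was held by 13.4% of the higher, 8.87% of the lower and 7.08% of all promoters, and the GATA motif by 5.53, 5.67 and 5.95%. Fas had 126 and 94.5 normalised reads in K14 control and 23.3 and 18.3 in Lrig1 control, a log2 difference of -2.35 ± 0.37 (limma adjusted p = 0.00989).

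Other named lower genes were mostly outside the lists. Car9, a carbonic anhydrase gene induced by low oxygen, had 133 and 159 normalised reads in K14 control and 27.9 and 21.1 in Lrig1 control (-2.53 ± 0.47; limma adjusted p = 0.0166). Slc4a8, a bicarbonate transporter gene, had 115 and 112 against 12.8 and 16.9 (-2.86 ± 0.56; limma adjusted p = 0.02). C1s1, a complement protease gene, differed by -2.34 ± 0.59. Gm29233, a lincRNA gene on the minus strand of chromosome 2 (118123451 to 118124047), had 1611 and 1625 against 291 and 334, at -2.37 ± 0.19. It lies inside the span of Thbs1 on the opposite strand (118111876 to 118127133), and since no source used here gives the strand setting of the counting, reads of the 2 genes cannot be told apart.

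Other named higher genes included Igfl3, a gene of the insulin growth factor-like family, with 0 and 1.97 normalised reads in K14 control and 115 and 128 in Lrig1 control, a ratio of 121 with an exact 95% counting interval of 33.1 to 1008. Gsdma, a gasdermin gene of the epidermis, had 14.2 and 2.95 against 458 and 416 (5.82 ± 1.1; limma adjusted p = 0.0177). Stra6, the receptor gene for the plasma carrier of retinol, had 37.6 and 47.3 against 285 and 272 (2.70 ± 0.20; limma adjusted p = 0.00298). Cpe, a peptide-processing carboxypeptidase gene, had 280.3 and 251 against 1161 and 1163 (2.13 ± 0.13).

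Proliferation genes leaned the other way without passing. Of 40 tested genes of DNA replication and mitosis 39 had a negative log2 difference and the median was -0.80. Only Cdc6 was called, as lower (background 2.27%, none by edgeR). In the controls alone 38 of 40 were lower (background 19.0%). Mki67, the Ki-67 gene, had 5271 and 5361 normalised reads in K14 control and 2967 and 3299 in Lrig1 control, differing by -0.76 ± 0.36 (limma adjusted p = 0.236, and 1.86e-07 in the controls alone). Top2a, a topoisomerase gene of dividing cells, had 2141 and 2151 against 1112 and 1145 (limma adjusted p = 0.0889). Pcna, the replication clamp gene, was at -0.21 ± 0.21.

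Interferon response genes were also below K14 control in the controls alone only. Of 31 tested members 30 had a negative log2 difference, the median was -1.93 and 0 passed by limma or edgeR over 8 libraries. In the controls alone 29 were lower (background 19.0%). Oasl2, an antiviral gene, had 602 and 695 normalised reads in K14 control and 96.6 and 104 in Lrig1 control, differing by -2.68 ± 1.28 (limma adjusted p = 0.246). Irf1, a transcription factor gene of the response, had 759.7 and 817 against 196 and 216, at -1.93 ± 0.59 (limma adjusted p = 0.086). In the controls alone both passed, with limma adjusted p = 5.29e-11 and 2.46e-10. The ablation pairs, which share the spread of this fit, were uneven in these genes: Oasl2 had 53.1 and 1858 normalised reads in K14 ablation 1 and 2. The chemokine genes Cxcl9 and Cxcl10, targets of interferon, had 1356 and 1496, and 968 and 1246, in K14 control against 196 and 319, and 129 and 161, in Lrig1 control, again without passing over 8 libraries.

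Among cholesterol synthesis and uptake genes 6 of 24 were higher (background 6.52%) and none lower, with a median of 0.51. Stard4, a sterol carrier gene, had 151 and 161 normalised reads in K14 control and 839 and 884 in Lrig1 control (2.45 ± 0.33; limma adjusted p = 0.00623), whereas Fdps, Sqle, Mvk, Fdft1 and Dhcr7, enzymes of the route, differed by 0.65 to 1.02. Of 15 mitochondrially encoded genes 14 were higher (background 6.52%), with a median of 1.49. The rRNA gene mt-Rnr2 had 35697 and 34895 against 78229 and 88549.7 (1.24 ± 0.28; limma adjusted p = 0.0351). None of 28 nuclear genes of oxidative phosphorylation was called by limma or edgeR, with a median of 0.06. The controls alone gave 4 higher (background 21.0%) and 2 lower (19.0%). Scaled to totals without mitochondrial genes, the median of all genes was -0.04 and 1549 genes were called, 1053 higher and 496 lower.

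**Figure D4:**
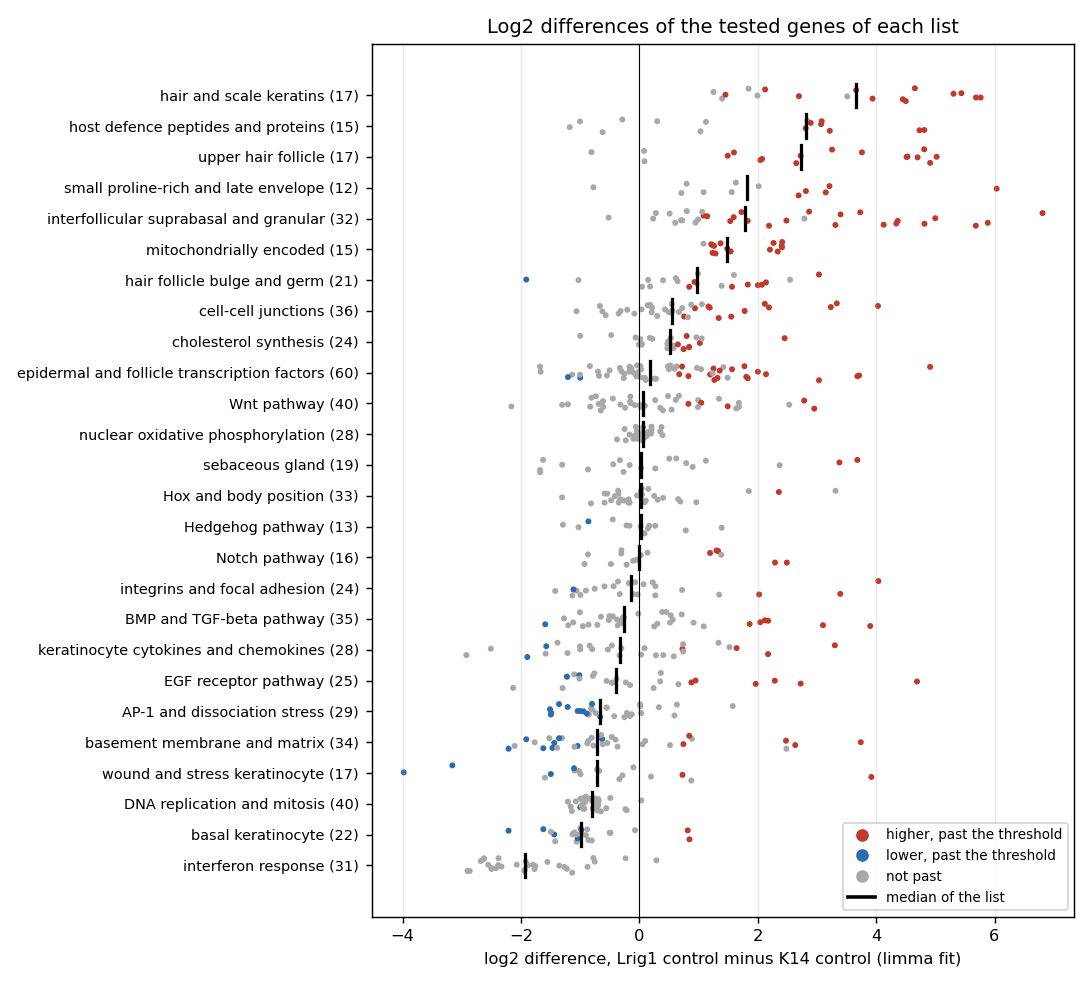
Log2 differences, Lrig1 control minus K14 control, of the tested genes (points) of each list other than the sex-linked genes and the markers of other cell types, with the number tested in brackets, the list's median as a black bar and colours for genes past the threshold. Medians of the lists drawn run from -1.93 for interferon genes, none of which passed, to 3.66 for hair and scale keratins.

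Markers of other cell types moved with the comparison. Of 15 tested endothelial and mural genes 13 were higher (background 6.52%) and none lower. The median was 4.53, the same with Kdr set at its bound. Kdr, the VEGF receptor gene, was at 0 in both K14 control libraries and at 71.0 and 78.9 in Lrig1 control, at least 25-fold higher against the floor. Sele, which encodes the adhesion molecule E-selectin, had 3.05 and 5.91 against 218 and 189, and Lyve1 and Flt4, markers of lymphatic vessels, 14.2 and 12.8 against 239 and 285, and 2.03 and 2.95 against 123 and 135. The whole list summed to 0.00174 and 0.00154% of normalised reads in K14 control and 0.0184 and 0.0194% in Lrig1 control, and the mural markers Rgs5 and Myh11 stayed below the filter.

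Fibroblast genes were higher in 5 of 8 tested cases (background 6.52%) and summed to 0.00139 and 0.00142% against 0.00352 and 0.00512%. Pdgfra had 1.02 and 0 normalised reads against 9.31 and 15.5, a ratio of 24.2 with an exact 95% counting interval of 3.85 to 1007, and Lum, another defining gene, was at 0 in 3 of the 4 libraries. Dcn, the decorin gene, had 58.9 and 49.2 against 55.9 and 87.4, so its groups overlapped and it did not pass (limma adjusted p = 0.554). Myeloid and Langerhans genes were higher in 6 of 15 (background 6.52%), and their sum went from 0.0117 and 0.0137% to 0.0355 and 0.0401%. Ptprc, the leukocyte gene CD45, had 4.06 and 2.95 against 39.6 and 80.3, and Cd207, which marks Langerhans cells, 0 and 4.92 against 34.9 and 24.0. Epcam, which follicle keratinocytes also carry, had 346 and 354 against 1908 and 1929.8, which was 35.3 and 30.5% of the list's sum in K14 control and 60.5 and 52.8% in Lrig1 control. Without Epcam the list summed to 0.00757 and 0.00955% in K14 control and to 0.014 and 0.019% in Lrig1 control.

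None of the 6 tested T cell genes, 5 Merkel and glial genes or 2 erythroid and muscle genes was called by limma or edgeR. Of 7 melanocyte genes only Kit was higher (background 6.52%). The T cell list held 0.0103 and 0.0107% in K14 control and 0.00499 and 0.00468% in Lrig1 control, most of it from Thy1, while Cd3d and Trdc had at most 1.41 normalised reads in any library. Vim, Fn1 and the other named genes that vessels, fibroblasts or myeloid cells also express moved with these lists, and the part of those cells in the results was not tested. In bulk RNA more cells of a type and more RNA per cell cannot be told apart. The upper follicle list, by contrast, summed to 0.186 and 0.185% against 0.959 and 0.976%, and the basal keratinocyte list to 3.28 and 3.25% against 1.70 and 1.78%.

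**Figure D5:**
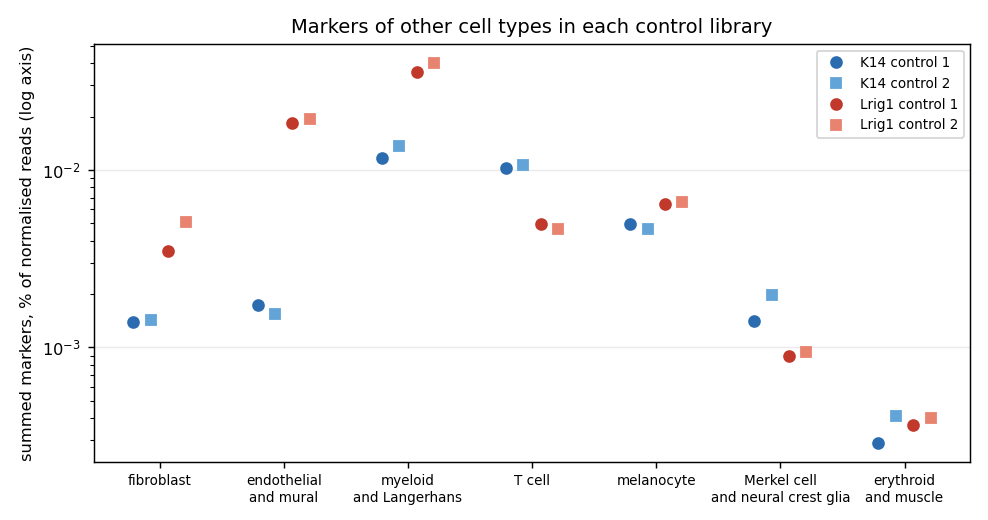
Summed markers of 7 other cell types as a percentage of normalised reads (log axis) in each of the 4 control libraries (points). Endothelial and mural markers are at 0.00154 to 0.00174% in K14 control (blue) and at 0.0184 to 0.0194% in Lrig1 control (red), while melanocyte markers lie between 0.00468 and 0.00658% in all 4 libraries.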

How the data were processed

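RNA of 8 libraries was sequenced (4 groups of 2). Per the submitters' processing notes, the tools were HTSeq (version 0.11.1), Picard, STAR and Trimmomatic, and the build GRCm38, also called mm10. Their roles and settings, the strand and the annotation release were not given in the sources used. The authors deposited a normalised signal per gene; all values (100%) are whole multiples of 1 step per library within 0.001, so whole reads were recovered. The ablation columns carry "Exp" where the labels have ablation (1.1 was read as replicate 1) and were matched as the only groups left.

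A gene was tested where 2 or more libraries gave it 1e-06 or more of their total. Limma 3.58.1 (R 4.3.3; variance trend, 4 residual and 4.13 prior degrees of freedom) was fitted to log2(value + 1), which understates differences of low genes, with 1 mean for each group over 8 libraries and no replicate block; the code was tested on simulated data. EdgeR 4.0.16 and DESeq2 1.42.0 on recovered reads were alternatives. Coordinates come from GENCODE M21 (GRCm38) by gene identifier, for 18084 tested genes, and promoters from RefSeq by symbol, for 10943.

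The members and the 34 gene lists were chosen with earlier results of these data known. Named genes have an adjusted p under 0.05, libraries that do not overlap and at least 100 normalised reads in the higher group (the 12 largest differences and 6 smallest p in each direction), plus up to 6 per list, Lrig1, Krt14, Krt5 and Krt15; other names, and the promoters and motifs shown, were chosen after values were seen. A few genes are not reported here. Intervals and floors cover counting error only, since no molecular identifiers are named and amplified reads can repeat a molecule.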

Additional observations from a re-analysis of the deposited data

Results flagged for a closer look

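For 9 named genes the difference between Lrig1 and K14 was not the same under ablation as in control, by the interaction term of the same limma fit, which passed an adjusted p of 0.05 for 36 of 18140 genes (0.198%). The values are the log2 difference under ablation minus that in control. Named genes were mostly picked by their control difference, which this term subtracts, so the choice itself favours terms of the opposite sign. All 9 had that sign. Krt17, a follicle and stress keratin, was at -2.478 (limma adjusted p = 0.0384): for Krt17, K14 ablation had 5722 and 7274 normalised reads and Lrig1 ablation 7190.3 and 7359, close together, where the controls stood apart. Gpx2 was at -3.161 (limma adjusted p = 0.0384), and Lrig1 ablation still lay above K14 ablation, at 126 and 132 against 44.6 and 46.1. Cpe was at -1.397 in the same way.

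Vim, at -4.435 (limma adjusted p = 0.0272), had 173 and 143 normalised reads in K14 ablation and 95.8 and 125 in Lrig1 ablation. The endothelial genes Sele and Emcn were at -7.235 and -6.23, and Sprr2b at -4.807; Sele was at 0 in both Lrig1 ablation libraries. The lincRNA gene Gm29233 and 4930517G19Rik, a locus annotated as still to be tested by experiment, both lower in Lrig1 control, were at 2.308 and 2.298, with a log2 difference of -0.06 and 0.11 between the ablation groups.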

How the results depend on the processing

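The 1594 calls stayed within 1.5 times of that count with pseudocounts of 0.25 and 5, without or with a stricter filter on low values, with TMM scaling, without mitochondrial genes in the totals, by edgeR (1396) and by DESeq2 (1619). With a replicate block 1325 genes passed. The labels do not say whether the replicate numbers pair the libraries. Correlations of the deviations of same-numbered libraries were -0.05 to 0.08, which cannot settle it. Array weights gave 6747 and the 4 control libraries alone 7269. Leaving out 1 library of the 8 gave 0 to 3531: 91 without K14 control 1, 96 without K14 control 2, 0 without Lrig1 control 1 or 2, 3524 without Lrig1 ablation 1 and 3531 without Lrig1 ablation 2. Leaving 1 library out of the controls alone, an alternative chosen after seeing the data, gave 5278 and 5430 without K14 control 1 and 2, and 6713 and 6586 without Lrig1 control 1 and 2; the lone library left in a group is assumed to vary like the others. The cause of these moves was not tested. Of 150 named genes past the threshold, 141 passed by edgeR, 141 by DESeq2 and 141 with the block, 20 and 25 without K14 control 1 or 2, 0 without Lrig1 control 1 or 2, and 150 in the controls alone and in each of its fits of 3 libraries; none changed direction in any of these. Depth limits genes near 3 reads in a control library, about 2.95 to 4.23 normalised reads.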
